A study of Mus musculus with 48 samples.

Results

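Brain pericytes were compared between the 2 hemispheres of mice with a unilateral stroke. The comparison rested on 12 of the 48 libraries of the study, 6 of ipsilateral and 6 of contralateral pericytes. It covered the 13597 of 24973 genes whose normalized counts averaged 10 or more across those libraries. Male C57BL/6 mice of 12 to 15 weeks had the right middle cerebral artery closed by a filament for 1 h, followed by 23 h of reperfusion. Each library held the sorted cells of 1 hemisphere pooled from 3 to 4 mice, and libraries with the same replicate number came from the same mice. The contralateral hemisphere of the stroked mice was the control, so both groups had been through the same surgery, and no sham-operated mice were analysed here. Pericytes were sorted as cells positive for NG2 and PDGFRβ and negative for CD45, ACSA-2 and VE-cadherin, so *Cspg4* and *Pdgfrb* code for proteins of the gate. The other 36 libraries held endothelial cells, astrocytes and microglia.

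For the ipsilateral pericyte and ipsilateral microglia samples, titles and table columns disagree about which cell type is which. The cell type was taken from the column names, and 4 defining genes were read as a check of that choice. *Pdgfrb* (the platelet-derived growth factor receptor of mural cells) ranged from 6375 to 30885 normalized counts in the 6 libraries named ipsilateral pericytes and reached at most 2439 in the ipsilateral libraries of the other cell types. *Des* (desmin) ranged from 13587 to 25278 against at most 480, *Cspg4* (the NG2 proteoglycan) from 9088 to 20777 against at most 782, and *Cd248* (endosialin) from 2860 to 13685 against at most 314. All 4 were thus higher in each of these 6 libraries than in any ipsilateral library of another cell type.

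Pericytes are mural cells embedded in the basement membrane of capillaries and small vessels. They take part in the control of vessel tone through an actin and myosin apparatus, in the upkeep of the blood-brain barrier, and in angiopoietin and PDGF signalling with the endothelium. In ischaemia they are known to constrict capillaries and to release cytokines and matrix proteins, and some of them die or leave the vessel wall.

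The normalized counts summed to between 10549900 and 11604877 per ipsilateral and between 11713317 and 12775186 per contralateral pericyte library, without overlap. Per library 11718 to 13491 genes were above 10. The worth of 1 read could be estimated in 9 of the 12 libraries and gave 9100000 to 13600000 reads on genes. A floor of 3 reads was therefore taken as at most 5 normalized counts per library. RNA of other cells differed among the libraries. The summed level of 10 microglial markers was 14308 to 65764 in ipsilateral replicates 1 to 4, or 4.6% to 21.1% of the mean sum in ipsilateral microglia, and 696 to 911 in ipsilateral replicates 5 and 6, or 0.224% to 0.293%. On the contralateral side it was 1187 to 26313 in replicates 1 to 4 and 594 to 1058 in replicates 5 and 6. The sum of 10 neutrophil markers was 44 to 13946 and that of 9 monocyte and macrophage markers 2095 to 34752 in ipsilateral replicates 1 to 4, against 50 to 161 and 110 to 177 in ipsilateral replicates 5 and 6. Contralaterally these sums were 0 to 1659 and 245 to 4125 in replicates 1 to 4, and 12 to 53 and 358 to 387 in replicates 5 and 6. The median log2 fold changes of the neutrophil and of the monocyte and macrophage markers were 3.75 and 2.61. They were 5.63 and 4.25 in replicates 1 to 4 and 0.00 and -0.50 in replicates 5 and 6. No marker in the microglial, neutrophil, or monocyte and macrophage lists was called between the hemispheres, although 1 neutrophil marker was higher with the replicate as a block. None was called in the endothelial, astrocyte, oligodendrocyte, oligodendrocyte precursor, neuron, fibroblast or erythroid lists. Of 5 lymphocyte markers 3 were at 0 in all 12 libraries and the sum was at most 30. The sum of 10 endothelial markers was 6106 to 19458 in ipsilateral replicates 5 and 6, or 2.86% to 9.11% of the mean sum in ipsilateral endothelial cells, and 3119 to 7065 in ipsilateral replicates 1 to 4, or 1.46% to 3.31%. On the contralateral side it was 5055 to 6389 in replicates 5 and 6 and 2361 to 8313 in replicates 1 to 4. The median log2 fold change of these endothelial markers was 1.27 in replicates 5 and 6 and 0.19 in replicates 1 to 4. Because these sums differed by replicate, many changes are given also within replicates 1 to 4 and within replicates 5 and 6.

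After stroke, 60 genes were higher and 79 genes were lower in pericytes. A gene was called when its p from limma, adjusted by Benjamini and Hochberg over all tested genes, was no more than 0.05, when it changed at least 1.5-fold on the log2(normalized count + 1) scale, and when it exceeded 10 normalized counts in all 6 libraries of at least 1 hemisphere. The higher genes were 0.441% and the lower genes 0.581% of all tested. The adjusted p alone was met by 144 genes, and 2098 had an unadjusted p under 0.05. The median fold of the called genes was 3.17 upward and 2.19 downward, while the median log2 fold change of all tested genes was -0.04. The higher genes had a median contralateral mean of 316 normalized counts and the lower genes of 2862, against 239 over all tested genes. All 60 higher genes rose in each of the 6 pairs of hemispheres and 78 of the 79 lower genes fell in each, the exception being *Grip2*. How many of all tested genes changed alike in the 6 pairs was not counted, so these pair counts have no background. The libraries of the 2 hemispheres did not overlap for 49 of the higher and 56 of the lower genes. Among all tested genes, 0.838% had every ipsilateral library above every contralateral one and 1.09% had every ipsilateral library below.

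**Figure D1:**
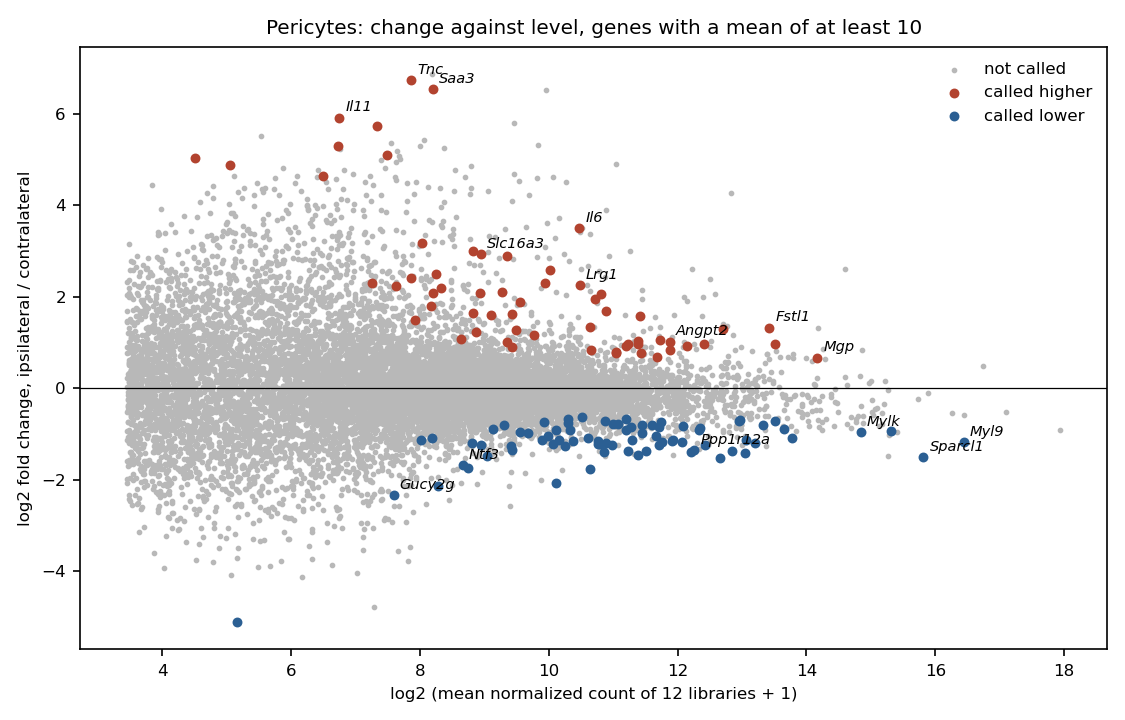
Log2 fold change of each tested gene in pericytes (ipsilateral over contralateral, y axis) against its mean level over 12 libraries (x axis). Coloured points are the 60 genes called higher and the 79 called lower, and grey points are genes not called. The lower genes lie mostly at higher levels than the higher genes, and *Tnc* has the largest log2 fold change of the called genes (6.73).

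Since the replicate number marks a shared pool of mice, the fit was repeated with the replicate as a block. It called 93 higher (0.684%) and 133 lower genes (0.978%), and 121 of the 139 genes called without the block were among them. Without replicate 1, 2, 3, 4, 5 or 6 the counts of higher genes were 34, 44, 11, 9, 18 and 9, and those of lower genes 71, 66, 9, 2, 12 and 5. Each of replicates 3 to 6 thus moved both counts by more than 1.5 times, and replicate 1 moved that of the higher genes. Of the 139 called genes, 9 were called in all 6 of these fits, among them *Slc16a3*, *Fstl1*, *Il6*, *Tnc*, *Lrg1*, *Capg*, *Sphk1* and *Ppp1r12a*, while 45 were called in 1 of the 6 and 33 in none. Of the genes described below *Angpt2*, *Cd44*, *Trib3*, *Sqle*, *Lgals9*, *Il17ra*, *Lmod1*, *Ivd*, *Aplp2* and *Trmt1l* were among the 33. So were *P2ry2*, *Pde4b*, *Mgp* and *Pros1*. Rescaling the libraries within pericytes by the median of ratios gave 64 higher and 55 lower genes, a share of 53.8% higher against 43.2% with the deposited scaling.

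The genes with the smallest p upward began with a lactate exporter and secreted proteins. *Slc16a3* encodes MCT4, a monocarboxylate transporter that exports lactate from glycolytic cells. Its normalized counts were 58, 107.5 and 228 (lowest, median and highest of 6 libraries) on the contralateral side and 506, 882.5 and 1070 on the ipsilateral side. The groups did not overlap, and the level was 7.63-fold higher after stroke (log2 fold change 2.93 ± 0.31 SE, adjusted p = 0.00236), with 2.97 in replicates 1 to 4 and 2.86 in replicates 5 and 6. *Fstl1* (follistatin-like 1, a secreted glycoprotein) had 4297, 6519.5 and 7592 counts contralaterally and 13907, 15303.5 and 18818 ipsilaterally. All ipsilateral libraries lay above the contralateral ones, by 2.5-fold (1.32 ± 0.15, adjusted p = 0.00379). The mean of *Fstl1* in ipsilateral microglia was 145 normalized counts, against 15578 in ipsilateral pericytes.

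*Il6*, a cytokine that signals through gp130, had 108, 168 and 450 normalized counts contralaterally and 1235, 1784.5 and 5110 ipsilaterally. It was 11.3-fold higher (log2 fold change 3.50 ± 0.42, adjusted p = 0.00379). The log2 fold change of *Il6* was 5.16 in replicates 5 and 6 and 2.67 in replicates 1 to 4. In the same 2 sets the marker medians were 1.27 and 0.19 for endothelial cells and -0.69 and 2.98 for microglia. The ipsilateral pericyte mean of *Il6* was 361% of that in ipsilateral microglia. What part RNA of other cells had in this change was not tested. *Tnc* (tenascin C, a matrix glycoprotein made at sites of injury) had 0, 3.5 and 23 counts contralaterally and 199, 268 and 960 ipsilaterally, with no overlap. Its fitted log2 fold change of 6.73 ± 0.90 (adjusted p = 0.00637) depended on the constant added to the counts, since the contralateral median was under the floor, and became 4.70 with 10 added in place of 1. *Lrg1* (leucine-rich alpha-2-glycoprotein 1, a secreted acute-phase protein) rose from 183, 518.5 and 794 to 1725, 2214.5 and 3333 counts, by 4.78-fold (2.26 ± 0.31, adjusted p = 0.00637).

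The other higher genes of smallest p had varied roles. *Capg* (an actin filament capping protein) rose 3.85-fold, *Sphk1* (sphingosine kinase 1, which makes sphingosine 1-phosphate) 4.6-fold and *Tnfrsf9* (the 4-1BB receptor) 9.03-fold. *Ccl5*, a chemokine for T cells and monocytes, was at 0 in all 6 contralateral libraries and at 12, 25 and 110 counts ipsilaterally. Against the floor of 3 reads in each library its mean was at least 8.77-fold higher. Its ipsilateral pericyte mean was 10.7% of that in ipsilateral microglia, and the part of microglial RNA in it was not tested. *Procr*, the protein C receptor and the 1 called gene of 19 in the complement and coagulation list, had 137, 185 and 415 counts contralaterally and 664, 746 and 1653 ipsilaterally, with no overlap (4.32-fold, 2.11 ± 0.34, adjusted p = 0.0153). *Lcn2* (lipocalin 2, an iron-siderophore carrier of the acute phase) rose 5.98-fold, *Tubb6* (a beta-tubulin) 2.98-fold, and *Plk3* (a polo-like kinase, the 1 called gene of 22 in the p53 list) 5.28-fold. The groups overlapped for *Lcn2*. Its log2 fold change was 2.91 in replicates 1 to 4 and 1.93 in replicates 5 and 6, and the latter alone did not give a call. What part RNA of other cells had in the change of *Lcn2* was not tested. *Saa3* (serum amyloid A3) went from 0, 3 and 43 to 106, 627 and 987 counts, and *Tmem229a* from 0, 0.5 and 3 to 22, 49 and 122.

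**Figure D2:**
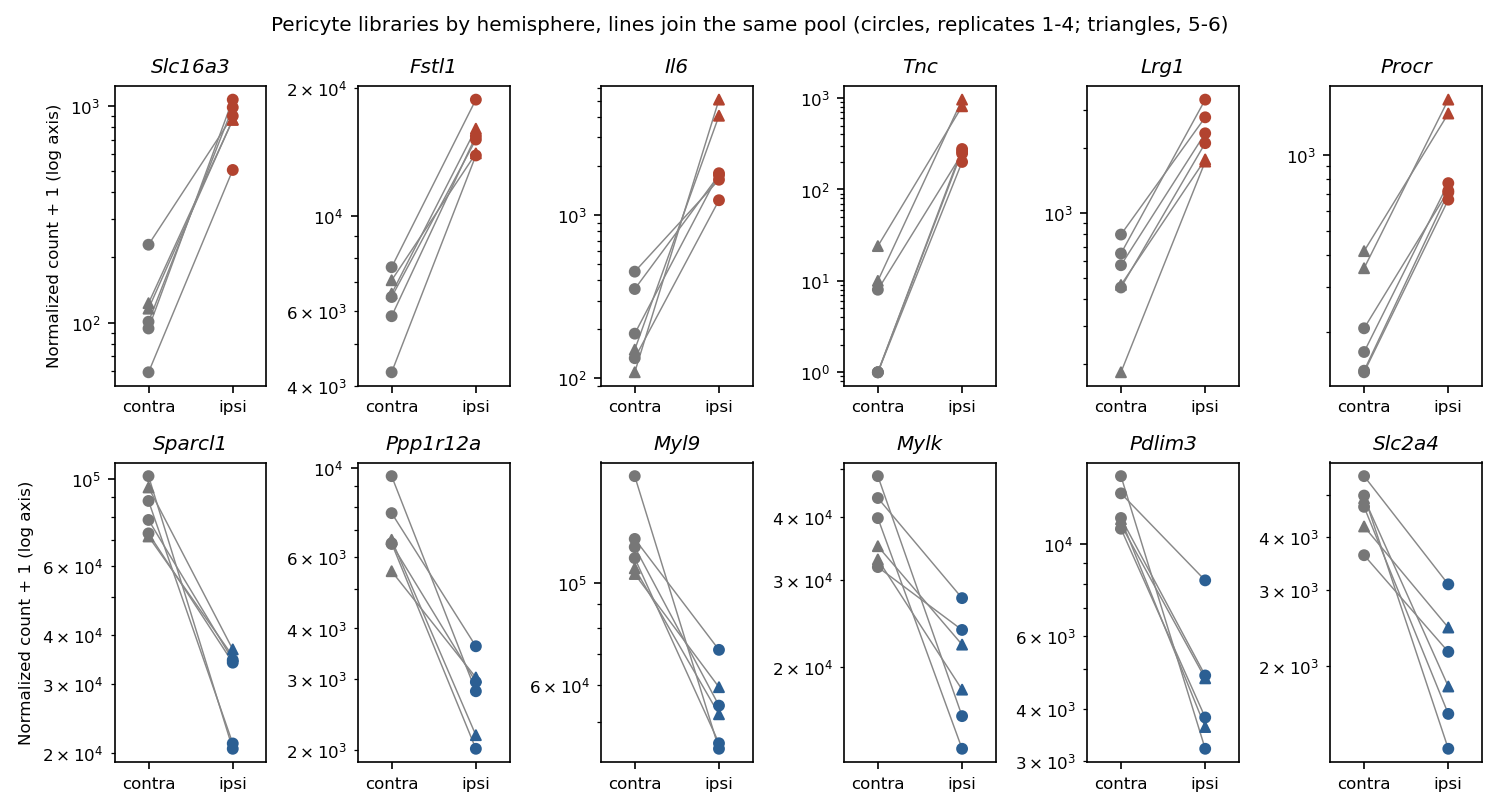
Normalized counts plus 1 (y axes, log scale) of 12 genes in the 6 contralateral and 6 ipsilateral pericyte libraries. Lines join libraries of the same pool, circles are replicates 1 to 4 and triangles replicates 5 and 6. Every line rises for the 6 higher genes and falls for the 6 lower genes. Except for *Mylk*, the genes were picked among those that changed alike in all 6 pairs.

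The promoters of 5 genes are shown, the first by p among the higher genes named above that hold a hypoxia core (ACGTG or GCGTG) or an AP-1 element (TGANTCA), because both motifs are tied to genes induced in ischaemia and injury. Each is the 250 bases before a RefSeq transcription start on GRCm38.p6, written 5′ to 3′ on the strand of the gene, with matches on either strand in capitals.
Slc16a3 (chr11:120948817-120949066, plus strand): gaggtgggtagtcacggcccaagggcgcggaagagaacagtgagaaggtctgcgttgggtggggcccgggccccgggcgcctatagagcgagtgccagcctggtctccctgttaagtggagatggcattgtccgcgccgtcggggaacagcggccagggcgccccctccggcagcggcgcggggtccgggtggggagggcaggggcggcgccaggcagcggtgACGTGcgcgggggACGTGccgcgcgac
Il6 (chr5:30012864-30013113, plus strand): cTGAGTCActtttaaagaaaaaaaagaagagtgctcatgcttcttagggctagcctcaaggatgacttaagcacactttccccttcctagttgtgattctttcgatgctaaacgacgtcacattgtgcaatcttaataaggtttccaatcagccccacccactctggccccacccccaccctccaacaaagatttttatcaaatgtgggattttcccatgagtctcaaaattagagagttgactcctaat
Lrg1 (chr17:56121947-56122196, minus strand): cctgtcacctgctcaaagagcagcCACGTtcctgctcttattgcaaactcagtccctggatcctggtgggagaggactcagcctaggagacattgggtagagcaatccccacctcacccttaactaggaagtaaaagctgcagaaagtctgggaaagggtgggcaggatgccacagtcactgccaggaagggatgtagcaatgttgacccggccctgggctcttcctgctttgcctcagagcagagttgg
Sphk1 (chr11:116531587-116531836, plus strand): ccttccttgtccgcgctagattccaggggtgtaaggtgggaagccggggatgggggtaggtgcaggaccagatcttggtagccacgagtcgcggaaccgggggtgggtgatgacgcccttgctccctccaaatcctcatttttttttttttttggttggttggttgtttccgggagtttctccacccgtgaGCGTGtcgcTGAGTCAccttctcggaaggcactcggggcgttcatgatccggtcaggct
Tnfrsf9 (chr4:150927749-150927998, plus strand): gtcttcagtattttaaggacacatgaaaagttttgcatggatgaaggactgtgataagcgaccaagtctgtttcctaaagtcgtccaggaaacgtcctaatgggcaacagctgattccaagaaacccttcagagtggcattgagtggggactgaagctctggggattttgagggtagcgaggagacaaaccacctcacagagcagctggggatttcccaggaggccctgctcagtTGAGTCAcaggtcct
*Slc16a3* holds ACGTG at 27 to 23 and at 14 to 10 bases before its start, *Il6* an AP-1 element at 249 to 243, *Lrg1* ACGTG on the other strand at 226 to 222, *Sphk1* GCGTG at 59 to 55 and an AP-1 element at 50 to 44, and *Tnfrsf9* an AP-1 element at 15 to 9. *Sphk1* has 5 starts in the table and *Tnfrsf9* has 2, and 1 is shown for each.

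Promoters were matched by symbol for 47 of the 60 higher genes, 60 of the 79 lower genes and 10224 of the tested genes. A gene counted as holding a motif when any of its starts did. An AP-1 element stood in 23.4% of the higher genes with a promoter (11 genes, among them *Il6*, *Il11*, *Plaur*, *Procr*, *Mt2* and *Hilpda*), in 11.7% of the lower genes, in 5.6% of the tested genes and in 7.82% of all 27025 genes with a promoter. ACGTG stood in 29.8%, 21.7%, 24.8% and 18.5% and GCGTG in 46.8%, 43.3%, 49.2% and 30.9% of the same 4 sets. The antioxidant element TGACNNNGC was held by 19.1%, 8.33%, 14% and 11.5%, and the cAMP response element TGACGTCA by 0.0%, 1.67%, 3.04% and 1.77%. Both strands were searched, and matches of different motifs could overlap. These shares are descriptions with no test, and a match is not evidence of binding.

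Among cytokines of the IL-6 family and their feedback genes, 3 of 21 tested members rose and none fell, with a median log2 fold change of 0.23 against -0.04 for all tested genes. Beside *Il6* these were *Il11* and *Bcl3*. *Il11*, another gp130 cytokine, had 0, 0 and 8 counts contralaterally and 27, 134 and 548 ipsilaterally, and its mean in ipsilateral microglia was 16 against 211 in ipsilateral pericytes. *Bcl3* (an atypical IκB protein) rose 4.2-fold. The signalling parts did not pass the test. *Il6st* (gp130 itself) had a log2 fold change of 0.58 (adjusted p = 0.21), *Stat3* 0.23 (0.67) and *Socs3* -0.18 (0.855). In a Gene Ontology list of the acute-phase response, taken from the deposited table after values had been seen, 3 of 21 genes rose and the median was 1.41, with 1.54 in replicates 1 to 4 and 0.00 in replicates 5 and 6.

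Chemokines and colony-stimulating factors had a median log2 fold change of 2.88 over 24 tested members, the highest of the lists of pericyte biology, but *Ccl5* alone was called. The median was 4.18 in replicates 1 to 4 and 0.63 in replicates 5 and 6, so it moved with the microglial marker sum, whose part in it was not tested. Of 38 tested members of the IL-1, TNF and NF-kB list *Tnfrsf1a* (TNF receptor 1) rose 1.6-fold (0.68 ± 0.13, adjusted p = 0.0265), from 2037, 2535.5 and 2819 to 3445, 3961 and 4992 counts, and the list median was 0.99. Of 31 interferon-stimulated genes 2 were called higher, both interferon-induced transmembrane proteins, and the median was 0.56. *Ifitm1* rose 3.23-fold (adjusted p = 0.0188, or 0.0505 with the replicate block) and *Ifitm3* 1.95-fold (adjusted p = 0.0447, or 0.0876 with the block). Their log2 fold changes were 3.02 and 1.73 in replicates 5 and 6 and 1.03 and 0.58 in replicates 1 to 4. The endothelial marker median moved the same way (1.27 and 0.19), *Ifitm3* had a mean of 29386 counts in ipsilateral endothelial cells against 15434 in ipsilateral pericytes, and the part of endothelial RNA in these values was not tested. None of 16 antigen presentation genes was called (median 0.86, with 1.17 in replicates 1 to 4 and 0.11 in replicates 5 and 6), and the median of the 19 complement and coagulation genes was 1.03, with 1.09 in replicates 1 to 4 and -0.25 in replicates 5 and 6.

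Matrix and protease genes changed in few members. *Tnc* was the 1 called gene of 39 interstitial matrix genes (median 0.50), while *Col1a1* and *Col1a2*, the chains of type I collagen, had log2 fold changes of 0.95 and 0.14 and were not called (adjusted p = 0.472 and 0.799). None of 20 basement membrane genes was called (median -0.11), among them *Col4a1* (0.08) and *Col4a2* (-0.12), the main network-forming collagens of that layer. Of 33 proteases and inhibitors 2 rose, with a list median of 1.19 (1.38 in replicates 1 to 4 and 0.46 in replicates 5 and 6). *Plaur* (the urokinase receptor) went from 30, 181.5 and 283 to 365, 966.5 and 2237 counts (7.36-fold). *Timp1*, a metalloproteinase inhibitor, had 517, 1680.5 and 5459 counts contralaterally and 3649, 7582 and 17831 ipsilaterally. It was higher in all 6 pairs, but the groups overlapped and its adjusted p was 0.103, or 0.0344 with the replicate block.

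Osteopontin and its receptors had 10 tested members, with a median of 0.37. *Cd44* (a receptor for hyaluronan and osteopontin) rose from 9, 114 and 219 to 363, 590.5 and 1638 counts, 8.05-fold, without overlap (3.01 ± 0.65, adjusted p = 0.0447). The call of *Cd44* was lost when any 1 of the 6 replicates was left out, with 0.1 added in place of 1, and within replicates 1 to 4 (3.38) and replicates 5 and 6 (2.26) alone. *Itga8*, an integrin subunit of contractile mural cells, fell 2.21-fold, from 1823, 2281.5 and 3013 to 642, 1074.5 and 1748 counts. Its groups did not overlap, and its adjusted p was 0.0249, or 0.0502 with the replicate block. *Spp1* (osteopontin) had 2050, 4108.5 and 9435 counts contralaterally and 6133, 29718.5 and 112736 ipsilaterally (2.61 ± 0.66), and the groups overlapped. Its adjusted p was 0.0804, or 0.0377 with the replicate block. The log2 fold change of *Spp1* was 3.58 in replicates 1 to 4 and 0.69 in replicates 5 and 6, and its mean in ipsilateral microglia was 286535 counts against 44914 in ipsilateral pericytes. The part of microglial RNA in this value was not tested.

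Genes of metal binding and of the unfolded protein response included 3 higher genes each. Of 17 metallothionein, zinc and iron genes 3 rose, namely *Lcn2* and the metal-binding *Mt2* and *Mt1* (median 0.58). *Mt2* went from 83, 201 and 415 to 494, 813 and 969 counts (4.22-fold) and *Mt1* from 1961, 3455 and 6455 to 6417, 8863.5 and 14201 (2.46-fold). The groups overlapped for *Mt1* and not for *Mt2*. Of 34 genes of the unfolded protein and Atf4 responses 30 had a log2 fold change above 0 and 3 were called (median 0.60, with 0.82 in replicates 1 to 4 and 0.25 in replicates 5 and 6). The median of all tested genes was -0.04, and their share above 0 was not counted. *Xbp1*, a transcription factor of that response, rose 1.78-fold (0.83 ± 0.14, adjusted p = 0.0176), and *Calr* (calreticulin, a chaperone of the endoplasmic reticulum) rose 1.9-fold. Their log2 fold changes were 0.86 and 0.97 in replicates 1 to 4 and 0.76 and 0.84 in replicates 5 and 6. *Trib3*, a pseudokinase induced by Atf4, had 0, 4 and 46 counts contralaterally and 57, 159 and 300 ipsilaterally. Its fitted log2 fold change was 4.64 (adjusted p = 0.0421, or 0.0703 with the replicate block), with 6.45 in replicates 1 to 4 and 1.03 in replicates 5 and 6. This value depended on the constant added, since the contralateral median was under the floor, and became 3.02 with 10 added. The call of *Trib3* was lost with 0.1 added and when any 1 of the 6 replicates was left out. The chaperone *Hspa5* (BiP) was not called, at 0.68 (adjusted p = 0.126). None of 28 heat shock proteins and chaperonins (median -0.02) and none of 23 Nrf2 targets (median 0.66) was called. In the KEGG list of protein processing in the endoplasmic reticulum, taken after values had been seen, 2 of 152 genes rose (median 0.12), or 2 with 1 lower with the replicate block.

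Glycolysis and hypoxia genes gave 1 call each. *Slc16a3* was the 1 called gene of 20 glycolysis genes (median 0.31, with 0.42 in replicates 1 to 4 and 0.02 in replicates 5 and 6) and of 21 solute carriers of pericytes (median 0.46, with 0.78 and -0.17), while *Ldha* (lactate dehydrogenase A, 0.65, adjusted p = 0.0999, or 0.0344 with the replicate block) and *Gapdh* (0.40, adjusted p = 0.244) were not called. Of 29 hypoxia response genes *Bhlhe40*, a transcriptional repressor, rose 2.08-fold, from 1402, 2114 and 3433 to 3214, 4667.5 and 6412 counts, and the list median was -0.04. *Hilpda*, which codes for a lipid droplet protein, rose 3.07-fold (1.62 ± 0.28, adjusted p = 0.0171), and *Plin2* (perilipin 2, which coats lipid droplets) 4.14-fold. Both were chosen after their values had been seen. In the cholesterol synthesis list 21 of 23 genes had a log2 fold change above 0, with a median of 0.73 against -0.04 for all tested genes. The share of all tested genes above 0 was not counted. *Sqle* (squalene epoxidase), the 1 called gene of this list, rose 2.02-fold.

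*Angpt2* encodes angiopoietin 2, a ligand of the endothelial receptor Tie2. It went from 2117, 2419 and 2914 counts contralaterally to 3349, 4998 and 7315 ipsilaterally, 2.02-fold higher and without overlap (1.01 ± 0.19, adjusted p = 0.0246), and it was the 1 called gene of 26 in the angiopoietin, VEGF and Notch list (median 0.12). Its log2 fold change was 0.79 in replicates 1 to 4 and 1.45 in replicates 5 and 6, its mean in ipsilateral endothelial cells was 4593 counts against 5084 in ipsilateral pericytes, and the part of endothelial RNA in its change was not tested. The call of *Angpt2* was lost when any 1 of the 6 replicates was left out. *Runx1*, a transcription factor, rose 2.33-fold and was the 1 called gene of 32 AP-1 and stress factors (median 0.24). The immediate early genes *Fos* and *Jun* of that list were abundant in both hemispheres and not called. *Fos* had a mean of 164324 normalized counts contralaterally and 115444 ipsilaterally (adjusted p = 0.324), and *Jun* 34034 and 21686 (adjusted p = 0.166, or 0.0416 with the replicate block). Among 23 secreted growth factors (median 0.34) *Ntf3* (neurotrophin 3) fell, from 440, 544 and 886 to 124, 150 and 447 counts (3.21-fold, -1.68 ± 0.32, adjusted p = 0.0265). No gene of PDGF and TGF-beta signalling (32 tested, median 0.14), Wnt signalling (23, -0.27) or the cell cycle (28, 0.16) was called, and the median of the 22 p53 targets was -0.20. Of 21 annexins, galectins and S100 proteins *Lgals9* rose (median 0.77), or 6 members with the replicate block. None of 38 proteasome genes (median 0.20, with 1 higher with the replicate block) and 1 of 80 cytosolic ribosomal proteins, *Rpsa*, was called (median 0.31).

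**Figure D3:**
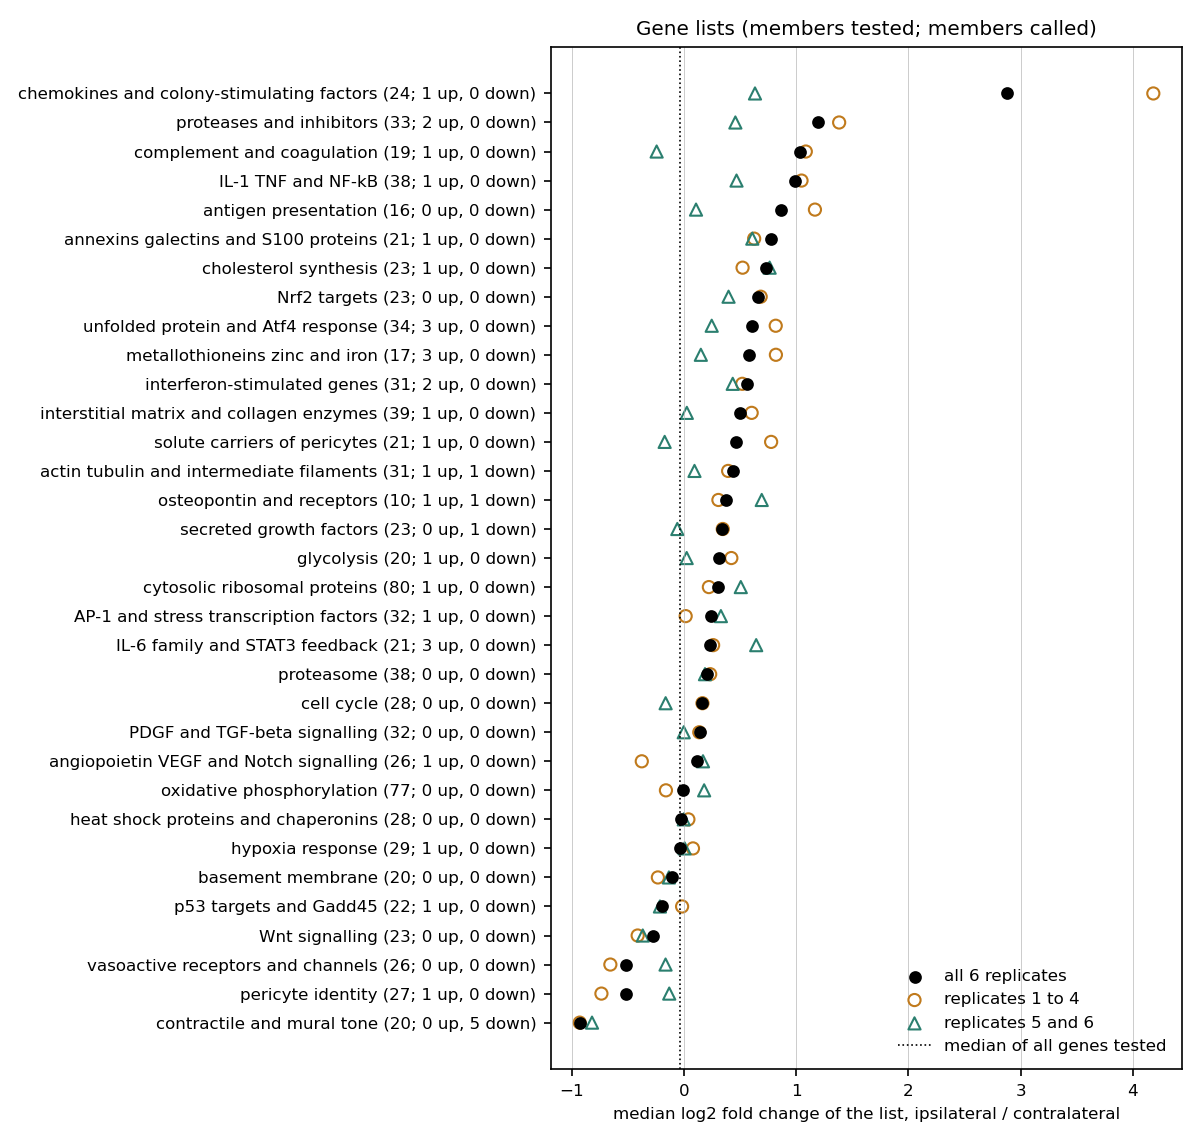
Median log2 fold change (ipsilateral over contralateral, x axis) of each gene list in pericytes over all 6 replicates, over replicates 1 to 4 and over replicates 5 and 6. The contractile list is at -0.93, -0.93 and -0.82 in these 3 sets, while the chemokine list is at 2.88, 4.18 and 0.63.

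Contractile genes had the lowest median change of the gene lists. Of 20 tested members of the contractile and mural tone list 5 fell and none rose, and the list median was -0.93 (-0.93 in replicates 1 to 4 and -0.82 in replicates 5 and 6). With the replicate block 8 members fell. Over all tested genes 0.581% were called lower. The 5 called members were *Myl9*, *Mylk*, *Tpm1*, *Pln* and *Lmod1*, and each call was lost when any 1 of replicates 3 to 6 was left out. *Myl9*, the regulatory light chain of smooth muscle myosin, had 104710, 116642 and 171005 normalized counts contralaterally and 43637, 53015.5 and 71624 ipsilaterally, 2.28-fold lower and without overlap (-1.19 ± 0.20, adjusted p = 0.0166). *Mylk*, the kinase that phosphorylates this light chain, fell from 31777, 37430.5 and 48418 to 13700, 20102 and 27523 counts (1.95-fold). *Ppp1r12a* (MYPT1, the targeting subunit of the phosphatase that removes the phosphate) was outside the list and had the smallest p downward. It fell from 5541, 6564.5 and 9529 to 2014, 2871.5 and 3613 counts, without overlap (2.57-fold, -1.36 ± 0.17, adjusted p = 0.0057). *Tpm1* (tropomyosin 1) fell 1.91-fold, *Pln* (phospholamban, which restrains the calcium pump of the sarcoplasmic reticulum) 2.32-fold and *Lmod1* (leiomodin 1, an actin nucleator of smooth muscle) 1.66-fold. The adjusted p of *Lmod1* was 0.0363, or 0.0502 with the replicate block.

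The most abundant contractile genes other than *Myl9* were not called. *Acta2* (smooth muscle actin) had 219016, 365103 and 398344 counts contralaterally and 108085, 164880 and 296422 ipsilaterally (-0.92 ± 0.31, adjusted p = 0.167), and the groups overlapped. *Myh11* (smooth muscle myosin heavy chain) had a log2 fold change of -1.48 ± 0.39 (adjusted p = 0.092, or 0.035 with the replicate block), and *Tagln* (transgelin) -0.67 ± 0.22 (adjusted p = 0.162). The sum of 8 smooth muscle markers was lower ipsilaterally in all 6 pairs, at 144028 to 331526 against 311823 to 483449, and 2 of the 8 (*Pln* and *Lmod1*) were called lower. In bulk libraries fewer smooth muscle cells or other contractile mural cells and less RNA of these genes per cell cannot be told apart.

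Further lower genes belong to the Z disc and the actin cytoskeleton. *Pdlim3* (a PDZ and LIM domain protein of the Z disc) fell from 10908, 11539 and 14620 to 3203, 4277 and 8182 counts (2.69-fold) and *Palld* (palladin, an actin cross-linker) from 8894, 12768 and 18188 to 4244, 5269 and 8290 (2.31-fold), both without overlap. *Fbxo32* (atrogin-1, a muscle ubiquitin ligase) fell 2.61-fold and *Cnn2* (calponin 2) 1.62-fold. *Cnn2* and *Tubb6* were the 2 called genes of 31 in the actin, tubulin and intermediate filament list (median 0.44). In lists of the deposited table taken after values had been seen, 7 of 95 sarcomere genes of the Gene Ontology (median -0.20) and 5 of 86 genes of vascular smooth muscle contraction in KEGG (median -0.28) fell, and none rose. *Sparcl1* (a secreted matricellular protein) was among the most abundant genes that fell, from 71486, 83445 and 101951 to 20515, 34316 and 36797 counts (2.84-fold, -1.51 ± 0.21, adjusted p = 0.00637).

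The promoters of the first 2 lower genes by p that hold a CArG box, the element bound by serum response factor in muscle genes, are shown beside the contractile results. This motif was looked for after values had been seen. Both are the 250 bases before the RefSeq start on GRCm38.p6, 5′ to 3′ on the strand of the gene, with the box in capitals.
Selenbp1 (chr3:94932833-94933082, plus strand): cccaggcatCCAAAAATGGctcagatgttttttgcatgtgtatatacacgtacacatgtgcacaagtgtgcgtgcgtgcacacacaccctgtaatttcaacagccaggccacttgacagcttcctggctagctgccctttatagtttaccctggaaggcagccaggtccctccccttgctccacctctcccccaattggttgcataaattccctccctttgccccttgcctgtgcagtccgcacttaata
Myl9 (chr2:156775214-156775463, plus strand): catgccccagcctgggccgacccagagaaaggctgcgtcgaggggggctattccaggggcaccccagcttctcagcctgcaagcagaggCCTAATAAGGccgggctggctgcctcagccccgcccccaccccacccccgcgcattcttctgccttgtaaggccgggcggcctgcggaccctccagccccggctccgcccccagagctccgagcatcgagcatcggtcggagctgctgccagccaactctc
The box lies 241 to 232 bases before the start of *Selenbp1* and 161 to 152 bases before that of *Myl9*. *Selenbp1* (selenium-binding protein 1) fell 2.81-fold. A CArG box stood in 5 of the 60 lower genes with a promoter (8.33%, namely *Asb2*, *Cnn2*, *Myl9*, *Rnd3* and *Selenbp1*), in 0 of the 47 higher genes, in 1.48% of the tested genes and in 1.62% of all genes with a promoter. With the replicate block the adjusted p of *Rnd3* was 0.0621, against 0.049. No test was made of these shares.

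Single genes of vessel tone fell, although none of the 26 tested vasoactive receptors and channels was called (median -0.52). *S1pr3* (a sphingosine 1-phosphate receptor) fell 1.87-fold, from 14740, 16250.5 and 20551 to 6903, 8703 and 11792 counts, without overlap (-0.90 ± 0.16, adjusted p = 0.0176). Chosen after their values had been seen, *Npy1r* (a neuropeptide Y receptor) fell 2.62-fold, *Adcy5* (an adenylyl cyclase) 2.31-fold and *Ramp1* (a subunit of the CGRP receptor) 2.32-fold. *Gucy1a3*, a subunit of the nitric oxide receptor, had a log2 fold change of -1.06 and was not called (adjusted p = 0.176).

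Metabolic genes were called lower in 3 KEGG lists and outside them. *Slc2a4* (GLUT4, the insulin-sensitive glucose transporter) fell from 3623, 4812 and 5548 to 1276, 1968.5 and 3096 counts (2.36-fold, -1.24 ± 0.20, adjusted p = 0.0153). *Idh2* (the mitochondrial NADP-dependent isocitrate dehydrogenase) fell from 5642, 6664.5 and 7577 to 3074, 3540.5 and 4629 (1.82-fold, adjusted p = 0.0153). Neither gene overlapped between the hemispheres. In KEGG lists of the deposited table, taken after values had been seen, 3 of 39 fatty acid degradation genes fell, as did 2 of 28 citrate cycle genes and 3 of 46 genes of branched-chain amino acid degradation, and none of these lists had a higher gene. Their medians were -0.18, -0.30 and -0.43. Over all tested genes 0.581% were called lower. Lists of this kind can share genes, and how many called genes stood in more than 1 of them was not counted. *Cpt1b*, the muscle-type carnitine palmitoyltransferase, fell 2.56-fold, *Acadm* (medium-chain acyl-CoA dehydrogenase) 1.97-fold and *Ivd* (isovaleryl-CoA dehydrogenase) 1.9-fold. All 3 calls were lost when any 1 of replicates 2 to 6 was left out. None of 77 oxidative phosphorylation genes was called (median -0.01).

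Genes that identify pericytes were not called lower. The 4 markers had log2 fold changes of -0.14 (*Pdgfrb*, adjusted p = 0.901), -0.52 (*Des*, 0.21), -0.74 (*Cspg4*, 0.185) and 0.30 (*Cd248*, 0.797). Of 27 pericyte identity genes *Ifitm1* was called, higher, and the list median was -0.52, with -0.74 in replicates 1 to 4 and -0.13 in replicates 5 and 6. In the contralateral hemisphere 35 of the 79 lower genes (44.3%) had a pericyte mean at least 4 times that of each of the other 3 cell types. This held for 5.27% of all tested genes. The same contralateral values entered the calls, and the lower genes had a median contralateral mean of 2862 against 239 over all tested genes. The shares were not compared at matched levels. For 31 of the 60 higher genes the ipsilateral pericyte mean was below that of ipsilateral microglia, as it was for 46.0% of all tested genes, and for *Ccl5* and *Slc15a3* it was under 20% of it. Among the 79 lower genes the ipsilateral pericyte mean was below the microglial one for 2, among them *Trmt1l* (adjusted p = 0.047 for *Trmt1l*, or 0.0706 with the replicate block).

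With the replicate block the number of called members moved by more than 1.5 times in further lists. There were 2 higher and 2 lower solute carriers, 2 higher and 0 lower interstitial matrix genes, 3 higher and 1 lower proteases and inhibitors, 2 higher and 1 lower glycolysis genes. There were also 1 higher and 2 lower AP-1 and stress factors, 2 higher and 0 lower chemokines, 3 higher and 0 lower IL-1, TNF and NF-kB genes, 2 higher and 0 lower complement and coagulation genes, and 1 higher and 1 lower angiopoietin, VEGF and Notch genes, 1 higher and 1 lower p53 targets, 3 higher and 2 lower actin, tubulin and intermediate filament genes. The interferon and pericyte identity lists held 0 and 0 called members with the block, the vasoactive, antigen presentation, proteasome and neutrophil lists 1 higher member each, the acute-phase list 5 higher members and the sarcomere list 11 lower members.

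The direction of change was read in the other cell types of the same mice. Of the higher pericyte genes that were tested there, 55 of 58 had a log2 fold change above 0 in endothelial cells, 55 of 58 in astrocytes and 46 of 57 in microglia, with medians of 1.07, 0.92 and 0.77. Over all genes tested in pericytes and in that cell type, 48.5% of 12269, 46.1% of 12825 and 42.3% of 11871 were above 0. Of the lower genes 54 of 70, 58 of 73 and 49 of 70 were below 0, with medians of -0.45, -0.23 and -0.44, against 51.5%, 53.9% and 57.7% of all genes tested. *Tubb6* had log2 fold changes of 3.05 in endothelial cells, 2.90 in astrocytes and 1.41 in microglia (adjusted p = 0.000102, 0.00251 and 0.00174). *Fstl1* had 0.46, -0.14 and 0.70, with adjusted p = 0.743, 0.915 and 0.505, and the differences of its pericyte change from these did not pass in the joint fit below. *Il6* had 3.33, 3.70 and 1.00, with adjusted p = 0.153, 0.197 and 0.112, and the differences of the pericyte change from these 3 did not pass either (adjusted p = 0.991, 0.996 and 0.326).

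**Figure D4:**
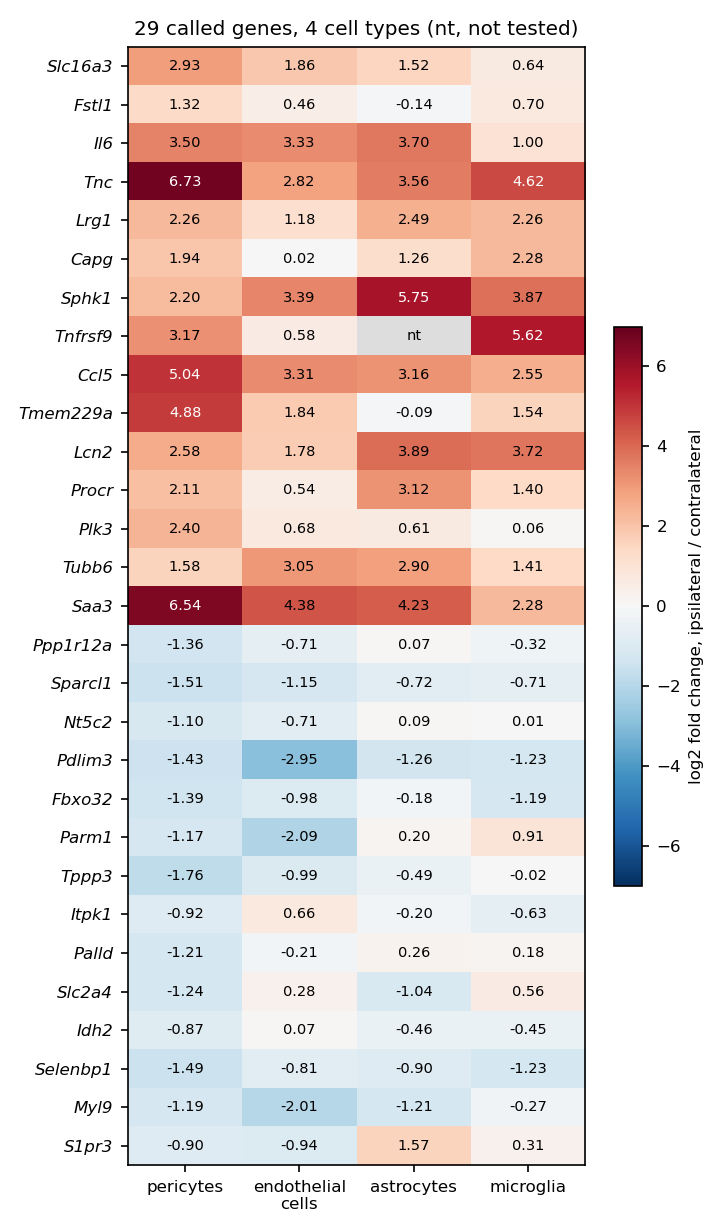
Log2 fold change after stroke (colour and printed value) of 15 higher and 14 lower pericyte genes among those with the smallest p (rows) in 4 cell types (columns), each from its own fit, with nt for genes not tested there. *Tubb6* is above 1 in all 4 columns. *Fstl1* is 1.32 in pericytes and -0.14 in astrocytes, but its change in pericytes did not pass the joint test of a difference from any other cell type.

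Whether the change in pericytes differed from that in another cell type was tested in a joint limma fit of 15003 genes and all 48 libraries. Against endothelial cells 4 genes differed (0.0267%), against astrocytes 1 (0.00667%) and against microglia 109 (0.727%), while 1193, 930 and 1898 genes had an unadjusted p under 0.05. With the replicate block the counts were 25, 20 and 254. None of the genes called in pericytes differed from astrocytes in the main joint fit. Among them, the long noncoding *B230312C02Rik* differed from endothelial cells (-5.44 on the log2 scale, the pericyte change minus the other) and from microglia (-4.28). It had 41, 56.5 and 124 counts contralaterally, and was at 0 in 5 ipsilateral libraries and at 31 in replicate 1. Since those libraries were under the floor, the differences depend on the constant added, and the log2 fold change of *B230312C02Rik* in pericytes was -5.11 with 1 and -2.49 with 10 added. Its means in endothelial cells and microglia were under the floor in both hemispheres, and its call in pericytes was lost when any 1 of replicates 2 to 6 was left out.

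Against microglia the change was higher in pericytes for *Lgals9* (galectin 9, 2.18) and *Il17ra* (a subunit of the interleukin 17 receptor, 2.10), and lower for *Aplp2* (an amyloid precursor-like protein, -1.14) and *Asb11* (an ankyrin repeat and SOCS box protein, -2.66). *Lgals9* and *Il17ra* stood at 21.5% and 22.7% of their microglial means in ipsilateral pericytes. Of the 60 genes whose change was higher in pericytes than in microglia, 53 had a higher contralateral mean in microglia than in pericytes, and their median log2 fold change in pericytes was 0.95 in replicates 1 to 4 and 0.38 in replicates 5 and 6. In microglia their median was -1.34, and 1 of the 60 was above 0. For the other 49 genes the change was lower in pericytes, with a median of -0.38 in pericytes and 1.39 in microglia, where 48 were above 0, and none had a higher contralateral mean in microglia than in pericytes. The part of microglial RNA in these differences was not tested. Without replicate 3 the count of genes that differed from microglia was 0, without replicate 4 it was 3 and without replicate 6 it was 54.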

How the data were processed

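RNA of sorted cells, amplified with SMART-Seq HT from about 250 pg, was sequenced in 48 libraries. Per the submitters' processing notes and methods, the authors trimmed reads with Trimmomatic 0.38, mapped them to GRCm38 with STAR 2.6.1d, assigned them to genes with featureCounts 1.6.3 and normalized the counts with DESeq2 1.18.1. The table the authors deposited holds the normalized counts after rounding to integers, a score rather than raw reads, so no count test was run.

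Tests were made here with limma 3.58.1 in R 4.3.3 (eBayes with a variance trend, two-sided) on the log2 of each normalized count plus 1, with Benjamini-Hochberg adjustment over all tested genes and the 12 pericyte libraries in the fit. Differences between cell types were tested as interaction contrasts of all 48 libraries. The main pericyte fit and the endothelial contrast of the joint fit were run on simulated data with noise independent between libraries. The alternative fits and the other contrasts were not. Summaries were made with Python 3.11.15 and pandas 2.3.3. Each replicate is a pool of mice. Without the block, p-values measure the spread between libraries of a group, each from a different pool. With the block they measure the spread of the hemisphere difference between pools. Fits without the block treated all libraries as independent, although both hemispheres and all cell types of a replicate shared a pool. The joint fit with the block still treated the cell types of a pool as independent.

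The deviations of same-numbered libraries from their hemisphere means correlated at 0.095, 0.417, 0.135, -0.073, 0.368 and 0.418 in the 6 pools (mean 0.227, against -0.045 for different numbers), and the pairing comes from the study's statement that both hemispheres of a replicate are from the same mice. The genes named were the 15 called genes per direction of smallest p that changed alike in all 6 pairs, the markers, called and most abundant members of the gene lists (up to 8 and up to 4), and genes called in pericytes that differed from another cell type. Others were named after their values had been seen. The members, gene lists and tests were chosen with earlier results of these data known, and 7 KEGG and Gene Ontology lists were added after values had been seen. Promoter sequences are those of RefSeq for GRCm38.p6. Floors cover counting error only. The alternatives changed the constant added, the filter on low values, the libraries, the scaling, the variance trend, the block and the fit. Results for some named genes are not reported here.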

Additional observations from a re-analysis of the deposited data

Results flagged for a closer look

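Of 120 groups of 6 libraries checked for the called genes named by rule, 9 held a library that stood apart from the other 5, by the ratio of its gap to the whole range on the log2 scale. Chance alone gives about 1 in 20. *Slc16a3* was 506 normalized counts in ipsilateral replicate 1, against 862 to 1070 in the others. *Sphk1* was 792 in ipsilateral replicate 2, against 437 to 507. *Runx1* was 981 in ipsilateral replicate 4, against 546 to 619. *Tpm1* was 44545 in ipsilateral replicate 1, against 23671 to 26811. *B230312C02Rik* was 31 in ipsilateral replicate 1 and 0 in the other 5. On the contralateral side *Myl9* was 171005 in replicate 4, against 104710 to 124855, and *Cd44* was 9 in replicate 4, against 73 to 219. *Xbp1* was 2060 in contralateral replicate 4, against 2681 to 2945, and *Cnn2* was 7233 in contralateral replicate 2, against 9577 to 11327. Ipsilateral replicate 1 and contralateral replicate 4 each held 3 of these 9 values.

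The change after stroke differed between pericytes and another cell type for 5 genes called in pericytes, by the interaction contrast of the joint limma fit. The pericyte change minus the microglial change was 2.18 for *Lgals9*, 2.10 for *Il17ra*, -2.66 for *Asb11*, -1.14 for *Aplp2* and -4.28 for *B230312C02Rik*. For *B230312C02Rik* the pericyte change minus the endothelial change was -5.44. Both values of *B230312C02Rik* depend on the constant added, since 5 ipsilateral libraries were at 0.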

How the results depend on the processing

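The counts of genes called higher and lower (60 and 79) moved by more than 1.5 times under many settings. They were 38 and 46 without a filter on low values, 93 and 133 with the replicate block, 167 and 253 with a term for replicates 1 to 4 against 5 and 6, 10 and 6 with replicates 1 to 4 alone, 65 and 20 with replicates 5 and 6 alone, 15 and 8 without the variance trend, and 198 and 90 in the joint fit of 48 libraries. Leaving out 1 replicate number, or 1 library as chosen after seeing the data, gave 9 to 86 higher and 2 to 139 lower genes. Among ipsilateral libraries the counts were 59 and 139 without replicate 1, 34 and 44 without replicate 2, 33 and 38 without replicate 3, 25 and 18 without replicate 4, 36 and 43 without replicate 6, and among contralateral libraries 29 and 15 without replicate 1, 86 and 119 without replicate 2, 38 and 31 without replicate 3, 43 and 32 without replicate 4, 24 and 26 without replicate 5, 29 and 20 without replicate 6, and each of these moved at least 1 count by over 1.5 times. Counting only genes at least as high in ipsilateral pericytes as in ipsilateral microglia, also chosen after seeing the data, left 29 higher genes and 77 lower ones. With 0.1 or 10 added, a mean of at least 50, rescaling, no expression rule or no minimum fold the counts stayed within 1.5 times. Of the 139 called genes, 139 were called with the term for replicates 1 to 4, 121 with the block, 13 with replicates 1 to 4 alone and 22 with replicates 5 and 6 alone. No call named here changed direction, and of their values over the alternatives 1152 kept the call and 584 lost it. For the genes described, the block ended the calls of *Ifitm1*, *Ifitm3*, *Itga8*, *Lmod1*, *Rnd3*, *Trib3* and *Trmt1l*, and its values stand beside each in the text.

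The counts of genes differing from endothelial cells, astrocytes and microglia (4, 1 and 109) became 30, 27 and 191 with 10 added and 25, 20 and 254 with the replicate block. With replicates 1 to 4 alone they were 1 and 4 for endothelial cells and astrocytes, and with replicates 5 and 6 alone 23, 15 and 47. With a mean of at least 50 the count against astrocytes was 0. Leaving out 1 replicate gave 0 to 1, 1 to 5 and 0 to 110. The cause of these shifts was not tested, beyond the smaller number of libraries where replicates were left out. At this depth, levels at or under 5 normalized counts per library cannot be told from 0.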

Other observations

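Among the 15 lower genes of smallest p, 4 not described above had roles outside contraction. *Nt5c2* (a cytosolic nucleotidase) fell from 1781, 2085 and 2590 to 789, 1032 and 1205 normalized counts (-1.10 ± 0.15, adjusted p = 0.00637). *Parm1* (a mucin-like membrane protein) fell from 4709, 5842.5 and 8067 to 1998, 2400 and 3473 (-1.17 ± 0.18, adjusted p = 0.0125). *Tppp3* (a tubulin polymerization-promoting protein) fell 3.39-fold, and *Itpk1* (an inositol phosphate kinase) 1.9-fold.

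Chosen after their values had been seen, further higher genes included *Hmga1* (a chromatin protein), which went from 35, 68.5 and 92 to 177, 275 and 533 normalized counts (4.7-fold), and *Srm* (spermidine synthase), which rose 2.41-fold. *P2ry2* (a receptor for extracellular nucleotides) rose 4.92-fold, and *Pde4b* (a phosphodiesterase that degrades cyclic AMP) 1.96-fold. *Mgp* (matrix Gla protein, an inhibitor of calcification) rose 1.59-fold and *Pros1* (protein S, a cofactor of activated protein C) 1.95-fold. The log2 fold changes of *P2ry2*, *Pde4b*, *Mgp* and *Pros1* were 2.47, 0.85, 0.67 and 0.98 in replicates 1 to 4 and 1.96, 1.20, 0.67 and 0.93 in replicates 5 and 6. None of them was called within either set of replicates alone, and each call was lost when any 1 of the 6 replicates was left out. The calls of *Pde4b* and *Pros1* were also lost with 0.1 added in place of 1.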
